A study of Rattus norvegicus with 18 samples.

Results

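Interferon-induced genes were examined in the colonic mucosa of rats that had received a colon carcinogen. The gene set was a named list of 44 genes that type I, type II or type III interferons are known to induce, and its members were taken by name. The array annotation paired 51 probe sets with exactly 1 symbol among them, covering 41 of the 44 genes, and 39 genes (45 probe sets) had enough signal to be tested, among 11407 genes tested in all. No probe set was named for Gbp5, Samd9l or Xaf1, and Oas1b and Socs1 fell below the filter on low signal.

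Mucosa was scraped from the proximal and the distal colon of 9 male Sprague Dawley rats, an outbred strain, and each scraping was measured on its own Affymetrix array (18 arrays, 9 per region). All 9 rats ate modified AIN-93G diet for 10 days, were injected subcutaneously with azoxymethane at 15 mg per kg and were killed 6 h later. Both regions therefore carry the exposure to azoxymethane, and no uninjected rats were used here, so no value below measures what the injection did. The series text describes 2 allocation groups of rats, but the labels used here do not place the rats in them.

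Interferons are secreted proteins that cells release on sensing foreign or misplaced nucleic acid. Type I and type III interferons act through receptor-bound Janus kinases on a complex with Stat2 and Irf9, which binds the interferon-stimulated response element (ISRE) of target genes. Interferon gamma acts mainly on gamma-activated sites (GAS) and through Irf1. In the gut, type III interferon acts largely on epithelium, and a low tonic interferon response is known in healthy mucosa.

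Values below are log2 signals after quantile normalization, on the scale log2(deposited signal + 16), and differences are distal minus proximal on that scale. Each adjusted p is from limma with Benjamini-Hochberg adjustment over all tested probe sets, and called means an adjusted p below 0.05. The number of arrays limits the precision. Epithelial markers were high in all 18 arrays, with a list mean of 12.76 to 13.02. Smooth muscle markers (12 of 12 tested) had a list mean of 12.24 in the proximal array of rat 3, where the remaining proximal arrays held 6.91 to 8.75. Distal rats 3 and 7 had list means of 9.98 and 9.91, and the remaining distal arrays 6.68 to 7.86. In scrapings of mixed cells, fewer cells of a type and less RNA per cell cannot be told apart.

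Many members stood high in the same distal arrays. In distal colon, the arrays of rats 2, 3 and 6 were the 3 highest for 17 of 39 members (43.6%), against 1.6% of all genes tested. The distal array of rat 2 was the highest of the 9 for 27 members (69.2%), against 7.44% of all genes. In proximal colon rats 2, 3 and 6 were the 3 highest for 0 of 39 members, against 1.55% of all genes, and rat 2 was the highest for 12 (30.8%), against 10.3% of all genes. These rats were picked out by the values of the members, so the counts describe the 9 distal arrays and no test was made on them. They depended in part on the scaling: with the deposited scaling the first count was 10 of 39 (0.298% of all genes), and with arrays centred on their medians it was 16 (1.4%). Distal rat 2 was the highest for 26 members with the deposited scaling (66.7%, against 5.85% of all genes). With arrays centred on their medians it was the highest for 29 members (74.4%), but also for 22.1% of all genes.

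**Figure D1:**
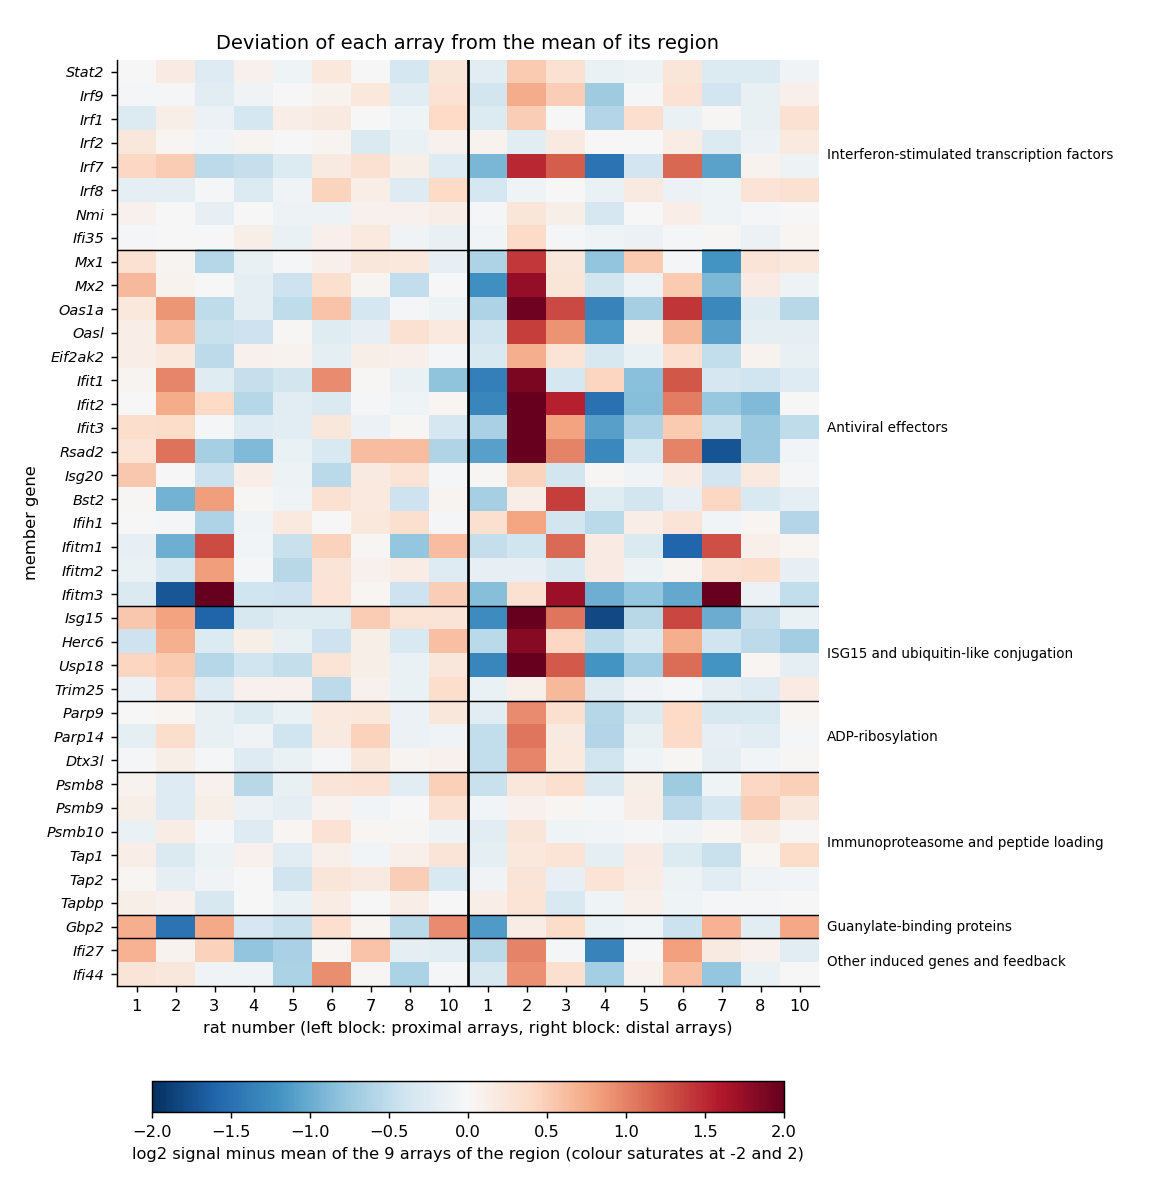
Deviation of each array from the mean of its region for the 39 tested members (rows, grouped by role), with the 9 proximal arrays on the left, the 9 distal arrays on the right and colour for the log2 deviation. In the distal arrays of rats 2, 3 and 6, Irf7, Oas1a, Ifit2, Isg15 and Usp18 are red, and the immunoproteasome group has no comparable red cells.

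Promoters of members are shown here because most hold the letters of the response element. RefSeq promoters (build GRCr8, 250 bases before to 50 after the annotated gene start) were found for 36 of the 44 listed genes. The ISRE core was searched as GAAA, any 2 bases and GAAA again, on both strands, and 25 of 36 promoters (69.4%) held it, against 3.92% of 33469 promoters of the same length. The GAS letters TTCNNNGAA, which read the same on both strands, were in 10 of 36 (27.8%), against 8.87% of all. The 2 kinds of match overlapped each other in 1 promoter. Matches of letters are a description and do not show binding.

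The first 4 sequences belong to members that were highest in the distal arrays of rats 2, 3 and 6, with the ISRE core in capitals. They lie at chr12:41330216-41330515 (plus strand), chr6:48788071-48788370 (minus strand), chr1:205799974-205800273 (minus strand) and chr1:241527076-241527375 (plus strand). All are printed in the direction of transcription, and the first core begins 41, 147, 69 and 44 bases before the gene start, in the order given. In Oas1a, 2 overlapping cores make 1 longer run of capitals.
Oas1a: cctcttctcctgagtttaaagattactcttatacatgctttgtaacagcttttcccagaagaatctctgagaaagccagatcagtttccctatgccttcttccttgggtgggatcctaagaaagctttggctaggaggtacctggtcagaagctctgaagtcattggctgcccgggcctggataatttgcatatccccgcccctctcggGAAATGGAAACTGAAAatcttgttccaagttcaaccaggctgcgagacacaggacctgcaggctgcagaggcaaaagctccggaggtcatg
Rsad2: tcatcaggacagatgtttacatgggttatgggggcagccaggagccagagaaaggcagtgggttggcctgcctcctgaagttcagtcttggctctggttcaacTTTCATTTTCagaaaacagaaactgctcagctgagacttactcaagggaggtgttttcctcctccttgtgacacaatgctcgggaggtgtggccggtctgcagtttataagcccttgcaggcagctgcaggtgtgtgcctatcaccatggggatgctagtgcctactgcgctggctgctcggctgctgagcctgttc
Irf7: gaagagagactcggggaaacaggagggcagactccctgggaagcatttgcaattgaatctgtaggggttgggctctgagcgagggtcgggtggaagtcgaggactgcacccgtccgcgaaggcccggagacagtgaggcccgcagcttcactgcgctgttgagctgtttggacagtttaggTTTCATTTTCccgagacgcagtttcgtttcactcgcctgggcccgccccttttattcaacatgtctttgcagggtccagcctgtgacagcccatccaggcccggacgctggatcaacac
Ifit3: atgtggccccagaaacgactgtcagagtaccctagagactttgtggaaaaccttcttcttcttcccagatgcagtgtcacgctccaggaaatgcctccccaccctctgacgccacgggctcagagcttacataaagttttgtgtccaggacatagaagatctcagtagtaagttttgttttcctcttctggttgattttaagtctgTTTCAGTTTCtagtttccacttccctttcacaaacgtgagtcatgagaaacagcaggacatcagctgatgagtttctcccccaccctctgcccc

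The next 3 belong to genes that differed between the regions. Ifi27 (chr6:128355062-128355361, plus strand) holds 2 separate cores, the first 169 bases before the start. Tap1 (chr20:4668494-4668793, minus strand) holds 1, 121 bases before the start. Irf1 (chr10:38417685-38417984, plus strand) holds none, and its capitals mark the GAS letters instead, which begin 142 bases before the start.
Ifi27: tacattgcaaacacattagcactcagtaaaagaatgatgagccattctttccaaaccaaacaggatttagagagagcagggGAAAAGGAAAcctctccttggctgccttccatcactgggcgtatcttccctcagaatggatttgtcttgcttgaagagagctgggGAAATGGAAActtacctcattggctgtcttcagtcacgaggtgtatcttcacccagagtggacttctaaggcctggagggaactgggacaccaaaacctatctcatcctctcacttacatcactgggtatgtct
Tap1: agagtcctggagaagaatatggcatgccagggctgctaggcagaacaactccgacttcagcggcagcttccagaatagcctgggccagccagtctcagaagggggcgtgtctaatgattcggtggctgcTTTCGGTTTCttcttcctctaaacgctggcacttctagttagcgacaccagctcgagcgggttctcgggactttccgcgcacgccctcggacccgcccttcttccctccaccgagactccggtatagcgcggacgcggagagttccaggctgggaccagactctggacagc
Irf1: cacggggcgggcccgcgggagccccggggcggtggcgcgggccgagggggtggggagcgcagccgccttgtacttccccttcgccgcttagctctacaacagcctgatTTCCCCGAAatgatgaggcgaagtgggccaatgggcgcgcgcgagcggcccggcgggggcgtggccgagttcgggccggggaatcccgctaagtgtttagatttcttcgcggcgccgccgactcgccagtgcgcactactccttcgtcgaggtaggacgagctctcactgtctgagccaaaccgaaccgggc

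The core was present in members with and without this order of distal arrays. Of the 17 members with rats 2, 3 and 6 highest, 13 had a promoter entry and 8 of these held the core, and of the other 22 tested members, 19 had an entry and 13 held it. In the immunoproteasome and peptide loading group, 5 of 6 promoters held the core, as did 10 of 12 promoters of the antiviral effectors.

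Between the regions, 4 of the 39 tested members were called (10.3%), against 30.8% of all genes tested. Higher in distal colon were 3, namely Ifi27, Trim25 and Tap1, where 16.2% of all genes were higher in distal colon. Irf1 was the 1 member higher in proximal colon, against 14.5% of all genes. The median difference over the members was 0.02, and 0.01 over all genes. No member had regional values that did not overlap, against 3.22% of all genes higher in distal colon and 3.67% higher in proximal colon without overlap. The same direction in 9 of 9 rats was found for 2 members higher in distal colon, against 11.4% of all genes, and for 1 higher in proximal colon, against 10.2%. In a fit that pairs the arrays of each animal (rat as a block), the counts were 5 and 4, against 19.5% and 17.4% of all genes (adjusted p = 0.0266 for Stat2 and 0.0453 for Parp9, both toward distal colon, and 0.048 for Ifitm3, 0.0441 for Psmb9 and 0.0372 for Psmb10 toward proximal colon).

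**Figure D2:**
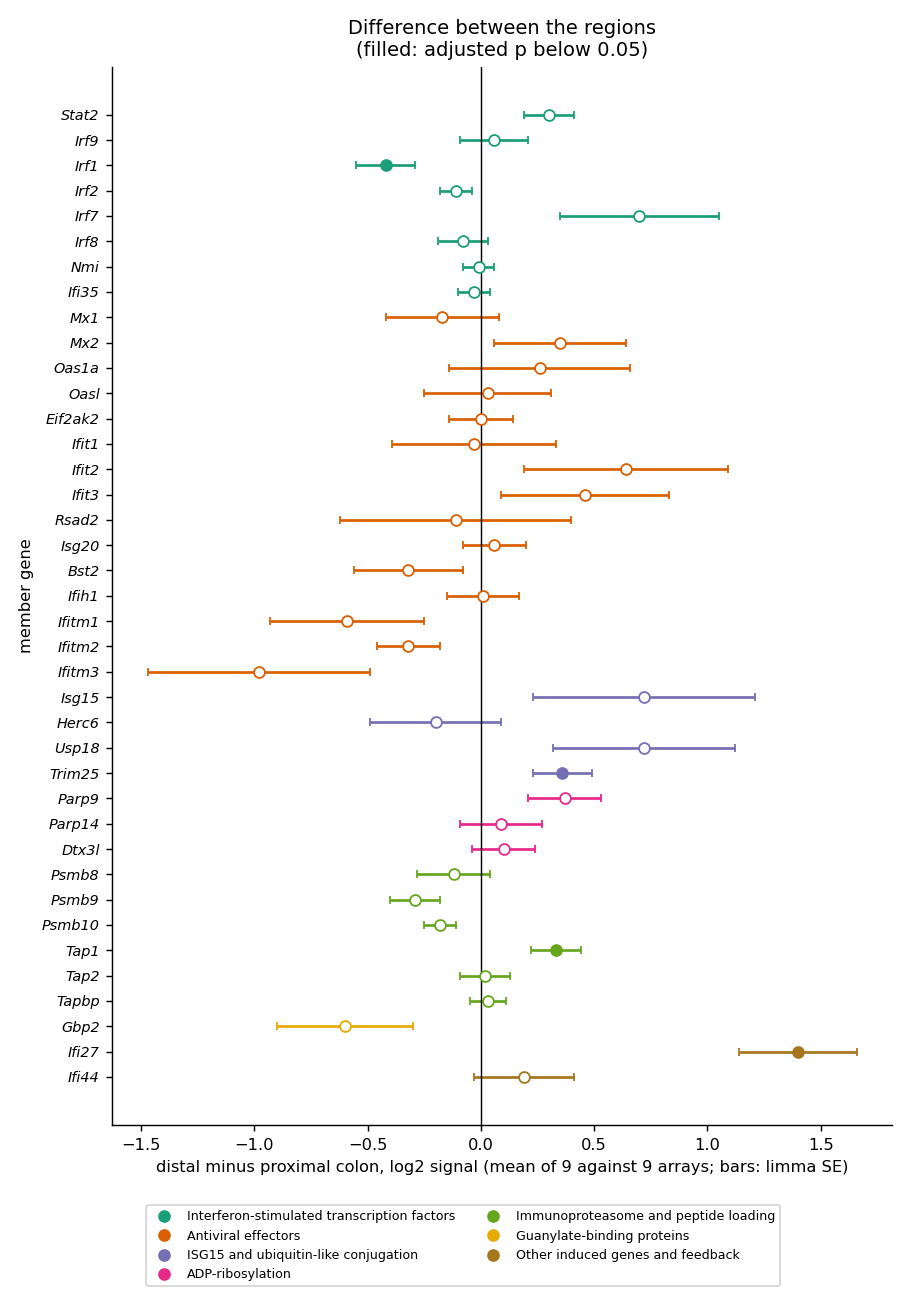
Distal minus proximal difference in log2 signal for the 39 tested members, with limma's standard error as bars (9 against 9 arrays), filled points for called members and colours for the role. Ifi27 stands at 1.40 and the other called members between -0.42 and 0.36, while Isg15, Usp18, Ifit2, Rsad2 and Ifitm3 have wide errors.

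Ifi27 encodes a small hydrophobic protein of mitochondria and the nuclear envelope and is a common readout of type I interferon exposure. Its log2 signals ran from 9.15 to 10.64 in proximal colon (median 9.98) and from 10.00 to 12.33 in distal colon (median 11.35). Rats 2 and 6 were highest in distal colon, at 12.33 and 12.16, and the regions overlapped. Ifi27 was higher in distal colon in 9 of 9 rats, by 1.40 ± 0.26 (SE, n = 9 each, limma adjusted p = 0.000481), which is 2.63-fold. Without the distal arrays of rats 2, 3 and 6 it stayed called, with a difference of 1.10 (limma adjusted p = 0.00486), the smallest of 20 alternatives.

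Trim25 is a ubiquitin ligase that activates the RNA sensor RIG-I. Its signals ran from 10.24 to 11.17 in proximal colon and from 10.87 to 11.77 in distal colon, with overlap, and the distal signal was higher in 9 of 9 rats. The difference was 0.36 ± 0.13 (SE, n = 9 each, limma adjusted p = 0.0388). Tap1 is a subunit of the peptide pump that feeds MHC class I molecules. Its signals ran from 8.01 to 8.56 in proximal colon and from 8.19 to 9.0 in distal colon, higher in distal colon in 7 of 9 rats, and the difference was 0.33 ± 0.11 (SE, n = 9 each, limma adjusted p = 0.0298). Both lost the call with the deposited scaling (limma adjusted p = 0.224 for Trim25 and 0.235 for Tap1). Trim25 also lost it with no filter on low signal (0.0504) and without the 3 arrays of highest smooth muscle mean (0.103). They also lost it when proximal rats 3 and 6 were dropped (0.131 and 0.0506) and when distal rats 2, 3 and 6 were dropped (0.168 and 0.0834). Leaving out single rats also ended the call, for rats 1, 3, 5, 6 and 8 in Trim25 (0.0554 to 0.0999) and for rats 2, 3, 5 and 8 in Tap1 (0.0538 to 0.101).

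Irf1 is the activator through which interferon gamma reaches many of its targets, MHC class I processing among them. Proximal signals ran from 10.46 to 11.21 (median 10.82) and distal signals from 9.80 to 10.88 (median 10.38). The groups overlapped, but the distal signal was the lower one in 9 of 9 rats. The difference was -0.42 ± 0.13 (SE, n = 9 each, limma adjusted p = 0.0187), and it was not called with arrays centred on their medians (-0.38, adjusted p = 0.0524) or without rat 6 (-0.38, adjusted p = 0.0577). With rat as a block the adjusted p was 0.000542. Irf2, which competes with Irf1 for its sites, differed by -0.11 (adjusted p = 0.294), and Irf8, a factor of myeloid and B cells, by -0.08 (adjusted p = 0.636). Of 16 tested T and NK cell markers, 3 were called (18.8%, against 30.8% of all genes), all toward proximal colon. These were Gzma, Gzmb and Ccl5 (-1.17, -0.84 and -0.53, limma adjusted p = 0.000171, 0.0225 and 0.00696). The other 13 were not called, with differences of both signs such as 0.46 for Cd3e and -0.44 for Klrd1, and the median difference of the list was 0.03. Gzmb was not called without rat 5, 6 or 7 (0.0519 to 0.0523). The range of that list's mean was 6.32 to 7.95 in proximal and 6.20 to 7.67 in distal arrays. The part of these cells in the Irf1 difference was not tested.

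Irf1 was also the 1 member of 39 called for a difference between rats averaged over the 2 regions. The moderated F-test of the 8 rat terms beside the region gave a limma adjusted p of 0.0429, where 2.68% of all genes were called. Rat 4 had the lowest Irf1 signal in both regions (10.46 and 9.80). The highest was in rat 10 in proximal colon (11.21) and in rat 2 in distal colon (10.88). This call held in 7 of 15 alternatives, with adjusted p from 0.0227 to 0.392. It was lost with the deposited scaling (0.392), without a filter (0.055) and without rat 1, 3, 4, 5, 8 or 10 (0.0547 to 0.121). Ifit1 came next (adjusted p = 0.0796) and was called with the deposited scaling (0.0285) and without rat 1 (0.0419).

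**Figure D3:**
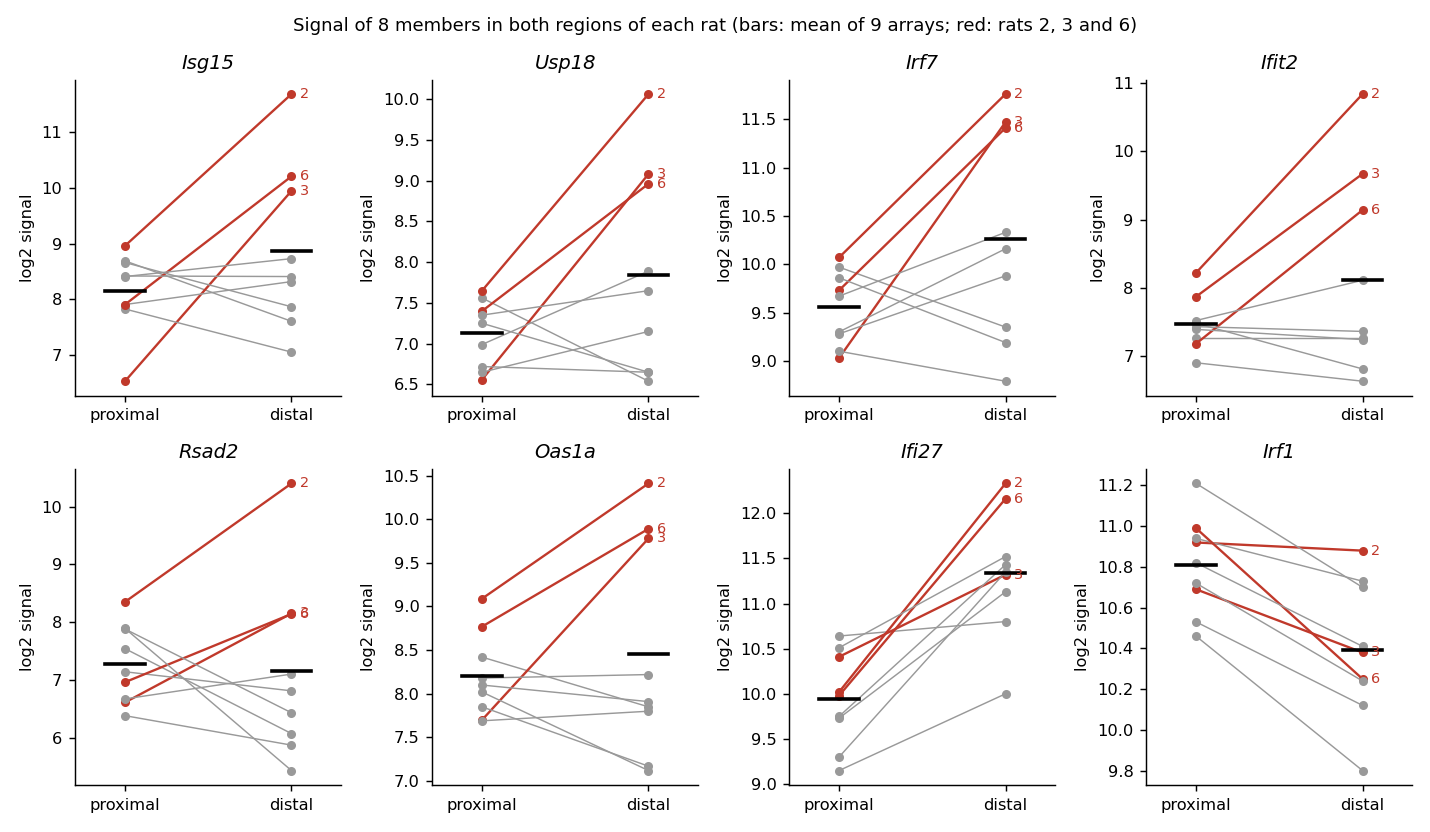
Log2 signal of 8 members in the proximal and distal array of each rat, joined by a line, with bars at the mean of 9 arrays and red lines for rats 2, 3 and 6. These 3 rats lie above the other distal arrays for Isg15, Usp18, Irf7, Ifit2, Rsad2 and Oas1a, while Ifi27 was higher and Irf1 lower in the distal array of 9 of 9 rats.

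Isg15 is a ubiquitin-like protein that is both secreted and attached to other proteins. Its proximal signals ran from 6.54 to 8.96 (median 8.41) and its distal signals from 7.06 to 11.67 (median 8.41). The 3 highest distal signals were 11.67 in rat 2, 10.20 in rat 6 and 9.94 in rat 3, and the other distal arrays reached 8.73 at most. In deposited units, the distal array of rat 2 read 3542.7, against 102.7 to 386.4 in the distal arrays of rats 1, 4, 5, 7, 8 and 10. The medians of the regions were equal to 2 decimals, and the mean difference of 0.72 ± 0.49 (SE, n = 9 each) was not called (limma adjusted p = 0.306). Without the distal arrays of rats 2, 3 and 6 it was -0.15 (adjusted p = 0.778), a fall that leaving out its 3 highest distal signals brings by construction. Rat 3 had the lowest Isg15 of all proximal arrays (6.54), so the difference within that rat, 3.40, exceeded the 2.72 of rat 2 and the 2.29 of rat 6.

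Usp18 removes Isg15 from proteins and restrains the type I interferon receptor. Its distal signals were 10.06, 9.08 and 8.96 in rats 2, 3 and 6 and 7.89 at most in the others, against 6.56 to 7.65 in proximal colon. Distal rat 2 stood 5.32-fold above the median of the 9 distal arrays. Herc6, a ligase that attaches Isg15, had a distal signal of 8.28 in rat 2, 7.19 in rat 6 and 6.87 in rat 3, and 6.16 at most in the others. Neither gene was called (limma adjusted p = 0.2 for Usp18 and 0.66 for Herc6). Without those 3 distal arrays Herc6 was called toward proximal colon (-0.69, adjusted p = 0.00884) and Usp18 differed by -0.04. Those arrays were picked for their high values, which lowers the distal mean by construction.

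Among the transcription factors, Irf7, which amplifies type I interferon production, had the widest distal range. In distal colon it read 11.76, 11.47 and 11.41 in rats 2, 3 and 6, where the others stayed between 8.79 and 10.33, and its proximal signals ran from 9.03 to 10.07. The mean difference was 0.70 ± 0.35 (SE, n = 9 each, limma adjusted p = 0.144). Irf9, the DNA-binding partner of Stat2, had 9.68, 9.43 and 9.23 in the same distal arrays, and at most 9.03 in the others. Its second probe set had the same 3 rats on top (9.70, 9.40 and 9.12). Of the 6 members with a second tested probe set, 2 had those rats on top in it, namely Irf9 and Ifit2. Stat2 itself had 9.43, 9.22 and 9.15 there and 8.63 to 8.84 in the other distal arrays, with a difference of 0.30 ± 0.11 (SE, n = 9 each) that was not called (limma adjusted p = 0.0578) except with arrays centred on their medians (0.0354), with the lowest 50% of probe sets left out (0.0487) and with rat as a block. Its second probe set read 8.80, 8.61 and 8.04 in those arrays, where rats 2, 3 and 10 were the highest, and differed by 0.04 between the regions (adjusted p = 0.884). Nmi and Ifi35, partners in 1 complex, differed by -0.01 and -0.03, and their distal arrays spread over 0.59 and 0.50. The second probe set of Nmi differed by -0.2, with the higher signal in proximal colon in 8 of 9 rats, and was not called (limma adjusted p = 0.0583).

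Among the antiviral effectors, 0 of 15 tested members were called between the regions by limma, against 30.8% of all genes (1 had an unadjusted p below 0.05, Ifitm2). Of the 15, 7 had rats 2, 3 and 6 as the 3 highest distal arrays (46.7%, against 1.6% of all genes). Rsad2, or viperin, which makes a chain-terminating nucleotide, had the widest distal range, from 5.43 to 10.40 (median 6.81), against 6.38 to 8.35 in proximal colon. The distal array of rat 2 was 12.0-fold above the distal median, those of rats 3 and 6 were 2.54-fold and 2.51-fold above it, and rat 2 was also highest in proximal colon (8.35). In deposited units the distal arrays of rats 2, 3 and 6 read 1431.4, 225.7 and 227.4, and the others 27.4 to 111.8. The mean difference of Rsad2 was -0.11 ± 0.51 (SE, n = 9 each, limma adjusted p = 0.896), and without the distal arrays of rats 2, 3 and 6 it was -0.98 (adjusted p = 0.0314). Those arrays held its 3 highest distal signals, so leaving them out lowers the distal mean by construction. The second p is therefore no test of a regional difference.

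The Ifit proteins bind viral RNA. Distal Ifit2 read 10.84, 9.67 and 9.14 in rats 2, 3 and 6, where the others stayed between 6.63 and 8.11, while proximal signals ran from 6.90 to 8.22. Its second probe set gave 9.62, 8.50 and 8.13 in those 3 arrays, with a distal median of 6.63. Ifit3 had 9.0, 7.08 and 6.81 in those arrays and 5.83 at most in the other distal arrays, and its proximal signals stayed between 5.48 and 6.19. Ifit1 was high in rats 2 and 6 in both regions, at 7.06 and 7.03 in proximal colon and 7.94 and 7.30 in distal colon, but was 5.70 in the distal array of rat 3. Differences of the 3 genes were 0.64, 0.46 and -0.03, and none was called (limma adjusted p = 0.324, 0.401 and 0.967).

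Oas1a, which makes the oligoadenylates that switch on RNase L, read 10.41 in distal rat 2, 9.89 in rat 6 and 9.78 in rat 3, and 8.22 at most elsewhere in distal colon. Rats 2 and 6 also had its highest proximal signals (9.09 and 8.77). Oasl, a related protein, had 10.78, 10.30 and 10.05 in the distal arrays of rats 2, 3 and 6, and 9.47 at most in the other distal arrays. Oas1b, not tested for its low signal, read 4.42 to 5.86 in distal and 4.37 to 5.75 in proximal colon. For the dynamin-like Mx GTPases, rat 2 stood farthest out. Mx1 read 9.79 in its distal array and 8.91 at most in the others, and Mx2 read 8.26 there and 7.03 at most in the others. A second probe set of Mx2 gave 8.96 in the distal array of rat 2, but 5.55 and 5.76 in those of rats 3 and 6. Eif2ak2, the kinase PKR, which halts translation on sensing double-stranded RNA, ran from 8.20 to 9.43 in distal and from 8.19 to 8.92 in proximal colon. Ifih1, the RNA sensor MDA5, differed by 0.01 and Isg20, an RNA exonuclease, by 0.06.

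A different set of arrays was high for the membrane proteins Ifitm3, Ifitm1 and Bst2. Ifitm3, which blocks virus entry from endosomes, read 11.23 in the proximal array of rat 3 and 7.11 to 9.31 in the other proximal arrays, and 10.06 and 9.55 in the distal arrays of rats 7 and 3 and 6.81 to 8.15 in the others. Ifitm1, which acts at the cell surface, was highest in proximal colon in rat 3 (11.01) and in distal colon in rats 7 and 3 (10.41 and 10.26). Bst2, or tetherin, which holds budding virus at the cell, was highest in the proximal and distal arrays of rat 3 (8.36 and 8.58), followed in distal colon by rat 7 (7.62). Ifitm2 was highest in proximal colon in rat 3 (11.26), but in distal colon in rats 8 and 7 (10.46 and 10.42), with rat 3 the lowest there (9.81). The proximal array of rat 3 and the distal arrays of rats 3 and 7 are the 3 arrays with the highest smooth muscle means given above. Ifitm genes are close relatives, and their probe sets may share signal.

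In the fit without a block none of these 4 members was called over all arrays (limma adjusted p = 0.152 for Ifitm3, 0.215 for Ifitm1, 0.109 for Ifitm2 and 0.359 for Bst2). With rat as a block Ifitm3 was called toward proximal colon (-0.98, adjusted p = 0.048). Without the 3 arrays of highest smooth muscle mean, Ifitm3 was called toward proximal colon (-1.25, adjusted p = 0.00285), as were Ifitm1 (-0.78, adjusted p = 0.0379) and Bst2 (-0.47, adjusted p = 0.0414). With all arrays their differences were -0.98 ± 0.49, -0.59 ± 0.34 and -0.32 ± 0.24 (SE, n = 9 each). The 3 arrays left out held the 2 highest distal signals and the highest proximal signal of each of these 3 genes. Leaving them out therefore lowers the means and the spread of both regions by construction. Ifitm2 differed by -0.32 ± 0.14, with the higher signal in proximal colon in 8 of 9 rats. Macrophage and dendritic cell markers (11 tested) had list means of 8.84 in the proximal array of rat 3 and 8.31 and 8.27 in the distal arrays of rats 7 and 3, each the top of its region. Endothelial markers (8 tested) had list means of 7.68 in the proximal array of rat 3 and 7.13 and 7.49 in the distal arrays of rats 7 and 3, also the top of each region. The part of these cells in the Ifitm values was not tested.

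Parp9 and Dtx3l form a ligase complex that strengthens interferon signalling, and Parp14 is a mono-ADP-ribosyltransferase. Distal rat 2 was highest for each, at 10.39 for Parp9, 10.15 for Dtx3l and 9.76 for Parp14, which is 2.26-fold, 2.04-fold and 2.32-fold above the distal median. Rats 6 and 3 came next for Parp9 (9.83 and 9.76) and Parp14 (9.08 and 8.87). The second probe set of Parp14 read 8.60, 7.72 and 7.16 in rats 2, 6 and 3, the last near its distal median of 7.14, and differed by -0.02 between the regions (adjusted p = 0.957). Mean differences of Parp9, Dtx3l and Parp14 were 0.37, 0.10 and 0.09 (limma adjusted p = 0.0931, 0.63 and 0.76).

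In the immunoproteasome and peptide loading group, rats 2, 3 and 6 were the 3 highest distal arrays for 0 of 6 members, near the 1.6% of all genes. Psmb8, a catalytic subunit that replaces a constitutive one under interferon, read 9.43, 9.52 and 8.49 in the distal arrays of rats 2, 3 and 6, the last being its lowest distal value, and the distal range was 8.49 to 9.69. Psmb9 was also lowest in the distal array of rat 6 (9.43, with 9.60 to 10.44 in the others). Its difference of -0.29 ± 0.11 (SE, n = 9 each) had a limma adjusted p of 0.0541, and it was called in 4 of 20 alternatives (0.021 to 0.0471, among them the fits without rat 2 and without rat 8). Psmb10 differed by -0.18 ± 0.07 (adjusted p = 0.0712). Tap2, the partner of Tap1, and Tapbp, or tapasin, which bridges the pump to class I molecules, differed by 0.02 and 0.03 with distal ranges of 0.49 and 0.59. Gbp2, a guanylate-binding protein that attacks the membranes of intracellular microbes, ran from 6.09 to 8.50 in proximal and from 5.82 to 7.74 in distal colon, with proximal rat 2 the lowest of its region. Its difference was -0.60 ± 0.30 (SE, n = 9 each, limma adjusted p = 0.15, and 0.0446 without rat 2). Ifi44, a cytosolic protein of unsettled function, read 8.37, 8.05 and 7.78 in the distal arrays of rats 2, 6 and 3 and 7.53 at most in the others, and differed by 0.19 (adjusted p = 0.582). Socs1, which shuts off Janus kinases, was not tested for its low signal, 4.32 to 5.21 in proximal and 4.69 to 5.97 in distal colon. It differed by 0.49, with the higher signal in distal colon in 8 of 9 rats. Its second probe set differed by 0.11 (7 of 9 rats). With no filter on low signal Socs1 was called toward distal colon.

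**Figure D4:**
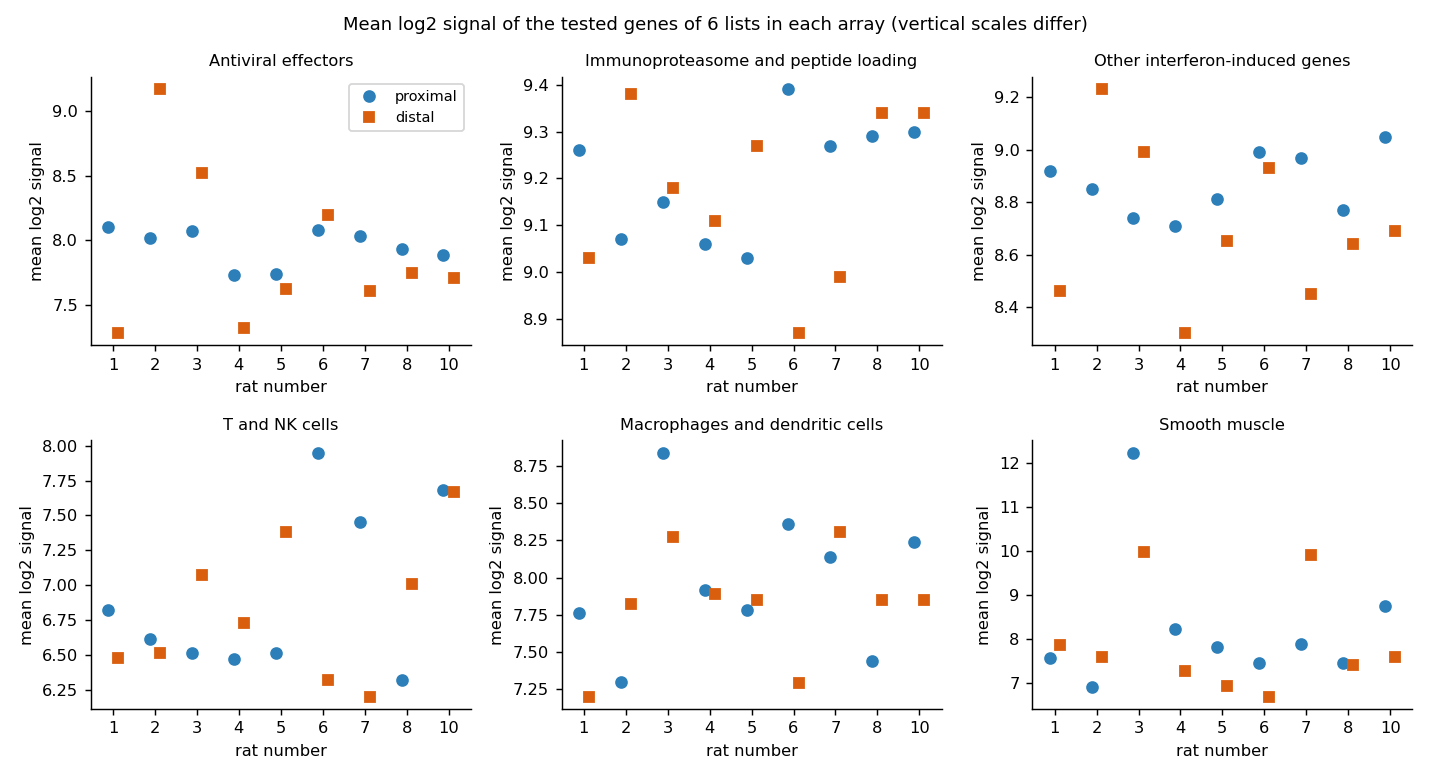
Mean log2 signal of the tested genes of 6 lists in each array, by rat, with circles for proximal and squares for distal arrays and a separate vertical scale in each panel. Antiviral effectors reach 9.17 in the distal array of rat 2, immunoproteasome and peptide loading genes stay between 8.87 and 9.39, and smooth muscle markers peak at 12.24 in the proximal array of rat 3.

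As means over the tested members of a role, antiviral effectors read 9.17, 8.52 and 8.20 in the distal arrays of rats 2, 3 and 6 and 7.28 to 7.75 in the other distal arrays, against 7.73 to 8.10 in all proximal arrays. The immunoproteasome and peptide loading mean was 9.38, 9.18 and 8.87 in those 3 distal arrays and 8.99 to 9.34 in the others. T and NK cell markers had list means of 6.51, 7.07 and 6.32 in the distal arrays of rats 2, 3 and 6, and 6.20 to 7.67 in the others. Rats 2, 3 and 6 were the 3 highest for 0 of 16 T and NK, 0 of 8 B and plasma and 0 of 11 macrophage and dendritic cell markers. The share over all genes was 1.6%, so counts of 0 in lists this short lie near it and decide nothing about these cells. Distal rat 3 alone was the highest for 4 of 11 macrophage and dendritic cell and 5 of 8 endothelial markers, against 2168 of 11407 genes. Distal rats 2 and 6 were the highest for 0 of either list. The part of these cells in the order of the arrays was not tested. Trimmed means of the deposited signal were 300.9, 235.4 and 252.5 in the distal arrays of rats 2, 3 and 6, and 210.3 to 341.2 in the other distal arrays. Only distal rat 10 (210.3) read lower than distal rats 3 and 6. With the deposited scaling rats 2, 3 and 6 were the 3 highest for 10 of 39 members, against 17 after quantile normalization. The part of array brightness in this order was not tested.

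Spread between rats was larger in distal than in proximal colon for most members, with no test made. The median SD of the members was 0.29 in proximal and 0.48 in distal colon (SD over 9 arrays, n = 39 genes), against 0.22 and 0.21 over all genes tested. The distal SD was the larger one for 32 of 39 members (82.1%), against 43.2% of all genes, and over 2 times the proximal SD for 13 members (33.3%), against 4.07% of all genes. With the deposited scaling 35 members had the larger SD in distal colon, against 65.3% of all genes. Rsad2 had the largest distal SD (1.54, above 99.7% of all genes), followed by Isg15 (1.47) and Ifit2 (1.45). Ifitm3 spread widely in both regions (1.10 and 1.20), and Psmb10, Nmi and Ifi35 stayed at 0.16 or less in both.

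**Figure D5:**
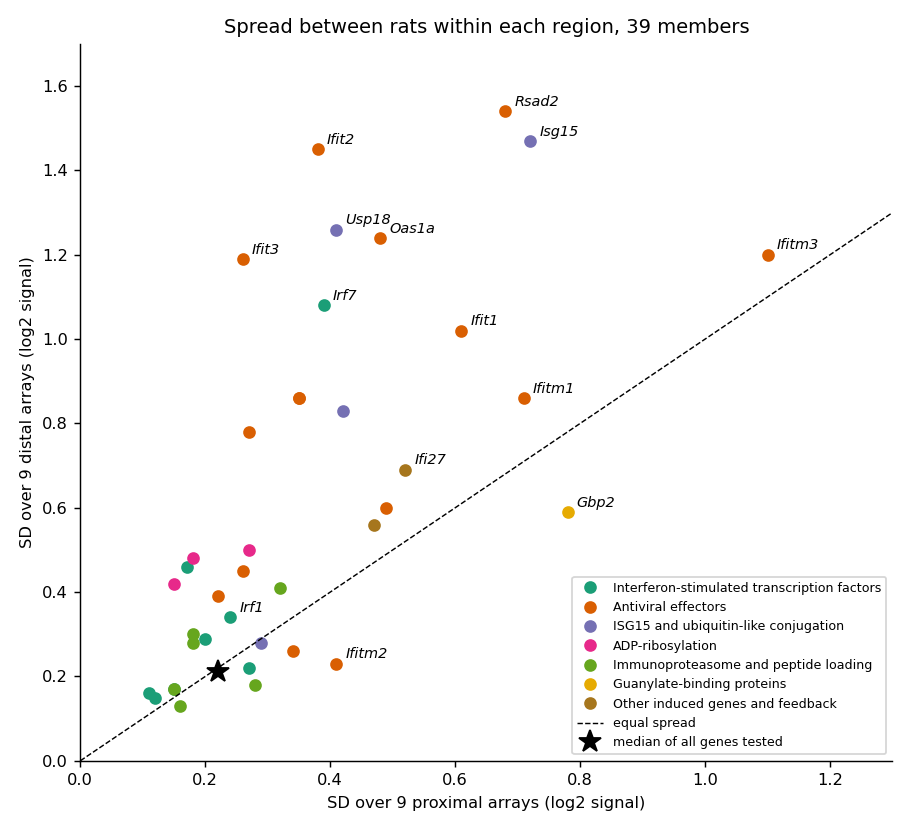
SD of log2 signal over 9 proximal (horizontal) and 9 distal arrays (vertical) for the 39 tested members, coloured by role, with a dashed line at equal spread and a star at the median of all genes tested (0.22 and 0.21). The larger spread was distal for 32 members, with Rsad2, Isg15 and Ifit2 farthest up.

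Other interferon-induced genes outside the list were read from a second list of 61 names, of which 40 were tested. In distal colon rats 2, 3 and 6 were the 3 highest for 12 of these 40 (30%, against 1.6% of all genes). Rat 2 was the highest for 22 (55%, against 7.44% of all genes). Between the regions, 5 were called toward distal and 8 toward proximal colon, with a median difference of 0.01. Together these were 32.5% of the list, near the 30.8% of all genes. Epsti1, which has its name from epithelial and stromal interaction, had the largest called difference and was 3.96-fold higher in proximal colon (8.59 ± 0.31 against 6.60 ± 0.40, SD, n = 9 each, limma adjusted p = 1.96e-08). The other 7 higher in proximal colon were Casp1 (-1.49), Tnfsf10 (-1.41), Cxcl11 (-1.24), Ddx60 (-1.21), Trim14 (-0.91), Plscr1 (-0.71) and Lgals9 (-0.58). All 8 kept that call under the 20 alternatives tried. The 5 higher in distal colon were Helz2 (0.67), Rnf213 (0.65), Adar (0.61), Ifi30 (0.45) and Casp4 (0.28). Ifi30 and Casp4 lost the call with the deposited scaling (0.0851 and 0.361), Rnf213 and Casp4 without the distal arrays of rats 2, 3 and 6 (0.0511 and 0.076), and Casp4 also without rat 2 or 5 (0.05 and 0.0574).

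The interferons themselves were at the bottom of the signal range. Ifnb1, Ifng and Ifnk, the 3 of 10 listed interferon genes with a probe set, read 4.06 to 5.26 over all arrays and never passed the filter level of 5.54. The distal array of rat 2 gave 4.28 for Ifnb1 and 4.66 for Ifng. These values do not show that interferon transcripts were absent. Of 14 receptor, kinase and signalling genes, 1 was called toward distal and 3 toward proximal colon (28.6% together, against 30.8% of all genes). Ifnlr1, the receptor chain specific to type III interferon, was 1.61-fold higher in distal colon (8.09 ± 0.57 against 8.78 ± 0.24, SD, n = 9 each, limma adjusted p = 0.0103), and read 9.14, 8.67 and 8.74 in distal rats 2, 3 and 6. Its partner Il10rb differed by -0.34 (adjusted p = 4.28e-05), Ifngr1, a receptor chain for interferon gamma, by -0.29 (adjusted p = 0.000548) and Tyk2 by -0.17 (adjusted p = 0.0397, lost in 10 of 20 alternatives).

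Around the members of antigen processing, 3 of 16 genes of MHC class I and peptide loading were called (18.8%, against 30.8% of all genes). Pdia3, a chaperone of class I loading, differed by -0.57 (limma adjusted p = 9.04e-05), Psme2, an activator of the immunoproteasome, by -0.33 (adjusted p = 0.0044) and Hspa5, a chaperone of the endoplasmic reticulum, by 0.24 (adjusted p = 0.00315, and 0.534 with the deposited scaling). Some probe sets of class I itself differed between rats: RT1-CE5, RT1-CE10, RT1-CE16 and RT1-T24-4 were called in the test of rat terms (adjusted p = 0.00483, 0.0115, 0.000379 and 0.00186). These were 4 of the 16 genes, where 2.68% of all genes were called. RT1-M3-1, RT1-N3, RT1-S3 and B2m were not called in that test (adjusted p = 0.575, 0.0553, 0.275 and 0.97). RT1-CE16 ran from 5.74 to 9.28 in proximal and from 6.26 to 9.37 in distal colon. The RT1 genes are near-identical copies, so which of them a probe set reads is uncertain. B2m, the invariant chain of class I, read 13.31 to 13.50 over the 18 arrays. Of 13 constitutive proteasome subunits, 23.1% were called, against 30.8% of all genes. Psma4, Psmb4 and Psmb5 were higher in distal colon (0.16, 0.22 and 0.24), and 0 were higher in proximal colon. All 3 lost the call with the deposited scaling (0.786, 0.648 and 0.573). Psma4 also lost it with arrays centred on their medians (0.0794), with proximal rats 3 and 6 dropped (0.0517) and without rat 5 or 7 (0.0749 and 0.0771), and Psmb5 as the mean of its probe sets (-0.02, 0.926). Among 12 genes of nucleic acid sensing, 16.7% were called, against 30.8% of all genes. Irf3 was higher in distal colon (0.23, adjusted p = 0.00479) and Mavs in proximal colon (-0.31, adjusted p = 0.00411), and Irf3 lost the call with the deposited scaling (0.13, adjusted p = 0.419).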

How the data were processed

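Mucosal RNA of 9 proximal and 9 distal colon scrapings was read on Affymetrix arrays, and the deposited values are linear signal intensities that the submitters' processing notes credit to MAS5, with no version or target level stated. The trimmed means of the arrays ran from 210.3 to 341.2, so log2(intensity + 16) was quantile normalized, which assumes similar overall distributions. After leaving out 57 controls and the lowest 30% of 31042 probe sets by mean signal (below 5.54), limma 3.58.1 (lmFit, eBayes with trend) was fitted in R 4.3.3 to distal against proximal, without a block, with Benjamini-Hochberg adjustment over all tested probe sets. Of the probe sets, 20826 had 1 symbol, 436 several and 9780 none, and only the first were named. A gene is represented by its probe set of highest mean. The fit was also run on simulated data, with noise drawn independently for each array apart from rat effects planted in some probe sets. That run therefore does not show how the main fit behaves where arrays of the same rat are correlated.

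Members and gene lists were chosen with earlier results of these data known, as was leaving out the proximal arrays of rats 3 and 6. Leaving out the distal arrays of rats 2, 3 and 6 was chosen after their values were seen. All members are accounted for. Array values are given for called members, those with the smallest p of the rat terms and further members of each role, and some genes outside the list were named after their values were seen, to complete short counts. Rat numbers pair arrays because the labels give both to the same animal. Deviations from the region means correlated between arrays of the same rat with a median r of 0.236 (-0.073 to 0.596, above 0.1 in 6 of 9 rats), against -0.0193 between rats. Promoter sequences are from RefSeq, build GRCr8.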

Additional observations from a re-analysis of the deposited data

Results flagged for a closer look

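Of 82 groups of 9 arrays (41 members in 2 regions), 6 held a sample whose gap to the nearest other array exceeded Dixon's 95% critical value for its share of the range. Chance gives about 5% of groups. In distal colon, rat 2 stood apart for Ifit3 (9.0, next 7.08), Dtx3l (10.15, next 9.37) and Ifi35 (9.32, next 8.98). Distal rat 3 stood apart for Trim25 (11.77, next 11.29). In proximal colon, rat 3 was the low sample for Isg15 (6.54, next 7.83) and Ifih1 (6.52, next 7.07).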

How the results depend on the processing

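Counts of members called toward distal colon (3) and toward proximal colon (1) were recomputed under 20 alternatives and that for the rat terms (1) under 15. Of the 39 members, 7 had no counted reversal and no change of call in any. Eif2ak2 is among these 7, but its main difference rounded to 0, so no reversal could be counted for it. Its differences ran from -0.23 to 0.07 over the 20 alternatives. The deposited scaling gave 1 member higher in distal colon. Median centring gave 4 higher in distal colon, 0 in proximal colon and 3 for the rat terms. No filter gave 3 higher in distal colon, with Trim25 lost and Socs1, otherwise left out, called, and 0 for the rat terms. Leaving out the lowest 50% of probe sets gave 4 toward distal and 2 toward proximal colon. The replicate block gave 5 and 4. Leaving out the proximal arrays of rats 3 and 6 gave 1 higher in distal colon, the 3 arrays of highest smooth muscle mean 2 toward distal and 4 toward proximal colon, and the distal arrays of rats 2, 3 and 6, chosen after seeing the data, 1 and 3. Without single rats the counts ran from 1 to 3, 0 to 3 and 0 to 1. Over all genes, 1853 and 1657 were called toward distal and proximal colon. With the deposited scaling they were 451 and 1552 (22.5% of calls toward distal colon, against 52.8%, median shift -0.10). Median centring gave 1771 and 1226, no filter 1782 and 1628, and leaving out the lowest 50% of probe sets 1827 and 1510. The replicate block gave 2219 and 1980. All-gene counts were 1711 and 1653 without proximal rats 3 and 6, and 1734 and 1753 without the 3 smooth muscle arrays. They were 1586 and 1477 without distal rats 2, 3 and 6. The rat terms called 306 of all genes, 133 with the deposited scaling, 216 with no filter and 985 with median centring. Signs reversed with the deposited scaling for Irf9 (-0.03), Oasl (-0.07), Isg20 (-0.03), Ifih1 (-0.10), Tap2 (-0.07) and Tapbp (-0.06), with median centring for Nmi (0.05) and Ifi35 (0.03), with pseudocount 64 for Ifit1 (0.03) and Rsad2 (0.01), and with probe sets averaged for Psmb5 (-0.02). Without the proximal arrays of rats 3 and 6 they did for Oasl (-0.07), Ifit1 (0.08), Isg20 (-0.08) and Ifih1 (-0.08), and without the arrays of highest smooth muscle mean for Ifit1 (0.04) and Ifih1 (-0.01). Without the distal arrays of rats 2, 3 and 6 they did for Irf9 (-0.20), Mx2 (-0.07), Oas1a (-0.52), Oasl (-0.46), Ifit2 (-0.24), Ifit3 (-0.22), Ifih1 (-0.11), Isg15 (-0.15), Usp18 (-0.04), Parp14 (-0.19), Dtx3l (-0.10) and Ifi44 (-0.12). Those arrays were picked for high values of members, so a shift toward proximal colon follows by construction. Without single rats, signs changed within ranges of -0.04 to 0.03 for Nmi, -0.14 to 0.15 for Ifit1, -0.38 to 0.18 for Rsad2, -0.09 to 0.08 for Ifih1, -0.04 to 0.14 for Irf9, -0.14 to 0.14 for Oasl, -0.04 to 0.09 for Tap2, -0.03 to 0.13 for Isg20 and -0.34 to 0.01 for Mx1. Of the genes with a reversal, Psmb5 was the 1 that had been called. The cause was not tested. Array signals near the filter level, such as those of the interferons, Oas1b and Socs1, set no lower limit on a transcript.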
